A study of Mus musculus with 10 samples.

Results

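Matrix metalloproteases (MMP), ADAMTS proteases and their tissue inhibitors (TIMP) were described in mouse ovarian follicle cells. The members were all symbols of the deposited expression table that begin with Mmp, Adamts or Timp followed by a number and, in some, the letter a or b, which gave 46 of 23234 symbols. They comprised 23 Mmp, 19 Adamts and 4 Timp genes. The name rule used no measured value, but it was chosen with earlier results of these data known.

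MMPs are zinc proteases that cut collagens, laminins and other matrix proteins, and most are made as inactive proenzymes that are opened outside the cell or by furin on the way out. ADAMTS proteases are secreted relatives with thrombospondin repeats, and several of them cut the proteoglycans versican and aggrecan. TIMPs bind the active site of MMPs, and TIMP3 also inhibits several ADAMTS enzymes. In the ovary these proteases are known for remodelling the follicle wall before ovulation, for processing versican in the expanding cumulus matrix, and for building the corpus luteum.

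RNA had been sequenced from 10 libraries in 5 groups, with levels given in FPKM, fragments scaled to the length of the transcript and to the size of the library. Cumulus cells, which surround the oocyte, came from C57BL/6 mice aged 2 months (n = 3) and 10 months (n = 3), and mural granulosa cells, the layers along the inside of the follicle wall, from C57BL/6 mice aged 2 months (n = 2). Whole cumulus-oocyte complexes (COC), which hold the oocyte as well, were taken at 3 weeks of age after priming with PMSG, a gonadotropin. They gave 1 library from BDF1 mice, a cross of C57BL/6 and DBA/2, and 1 from DBA/2 mice. The protocols given for all samples name a medium with milrinone, a phosphodiesterase inhibitor, and state that mural cells were from eCG-primed animals. For the cumulus donors the labels give no priming, and for no group do they say that replicates were separate animals. The p-values below therefore reflect the spread among these libraries, which may be technical.

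The summed FPKM of a library lay between 470377 and 603460, and read depth was not given. The labelled cell types were checked on 8 markers each of cumulus and of mural cells. Mural markers summed to 5523 to 8300 FPKM in mural libraries and 257 to 333 in 2-month cumulus libraries. They summed to 389, 823 and 1815 in replicates 1, 2 and 3 at 10 months, so that replicate 3 stood apart in this sum. Cumulus markers summed to 864 to 1127 FPKM at 2 months, 842 to 1226 at 10 months and 373 to 539 in mural libraries. In the complexes they summed to 1114 (BDF1) and 524 FPKM (DBA/2), the latter within the mural range. Amh of that list stood at 437 FPKM in the BDF1 and 44.6 in the DBA/2 complex. Mro, also on the list, was higher in mural cells, at 135 and 139 FPKM against 15.6 to 19.2 in 2-month cumulus libraries. Oocyte markers summed to 2534 and 2644 FPKM in the complexes, and to 183, 0.720 and 964 in cumulus replicates 1, 2 and 3 at 2 months, so those cumulus libraries held unequal amounts of oocyte RNA. In bulk RNA, fewer cells of a type and less RNA per cell cannot be told apart.

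Only part of the family was detected. Of the 46 members, 24 stayed below 1 FPKM in every library, among them 6 listed at 0 throughout (Mmp1a, Mmp3, Mmp7, Mmp8, Mmp20 and Mmp27). At the other end 14 members reached at least 1 FPKM in all 10 libraries, of which 3 were Mmp, 9 Adamts and 2 Timp genes. The remaining 8 reached 1 FPKM in some libraries. A mean of at least 1 FPKM over the 8 C57BL/6 libraries, the requirement for testing, was met by 18 members (5 Mmp, 9 Adamts and all 4 Timp genes).

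Of the 23 Mmp genes, 16 stayed below 1 FPKM in every library, and 9 of these lie in 1 cluster. RefSeq places 10 Mmp genes next to each other on chromosome 9 (Mmp13, Mmp12, Mmp1b, Mmp3, Mmp1a, Mmp10, Mmp8, Mmp27, Mmp20 and Mmp7), a cluster that holds interstitial collagenases, stromelysins and matrilysin. All 6 members listed at 0 throughout belong to the cluster, whereas Mmp9, Mmp16, Mmp17, Mmp21, Mmp24, Mmp25 and Mmp28, also below 1 FPKM everywhere, lie outside it. The cluster's exception was Mmp13, the main interstitial collagenase of the mouse, at 2.09 FPKM in 10-month cumulus replicate 3 and 0.459 in replicate 1, against at most 0.0678 in the other libraries. Gelatinase B, Mmp9, did not exceed 0.695 FPKM, reached in 10-month cumulus replicate 1, and was listed at 0 in 6 of 10 libraries. Mmp19, a secreted MMP known from the ovary, stood at 1.5 FPKM in 10-month replicate 3 and at no more than 0.492 FPKM elsewhere.

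**Figure D1:**
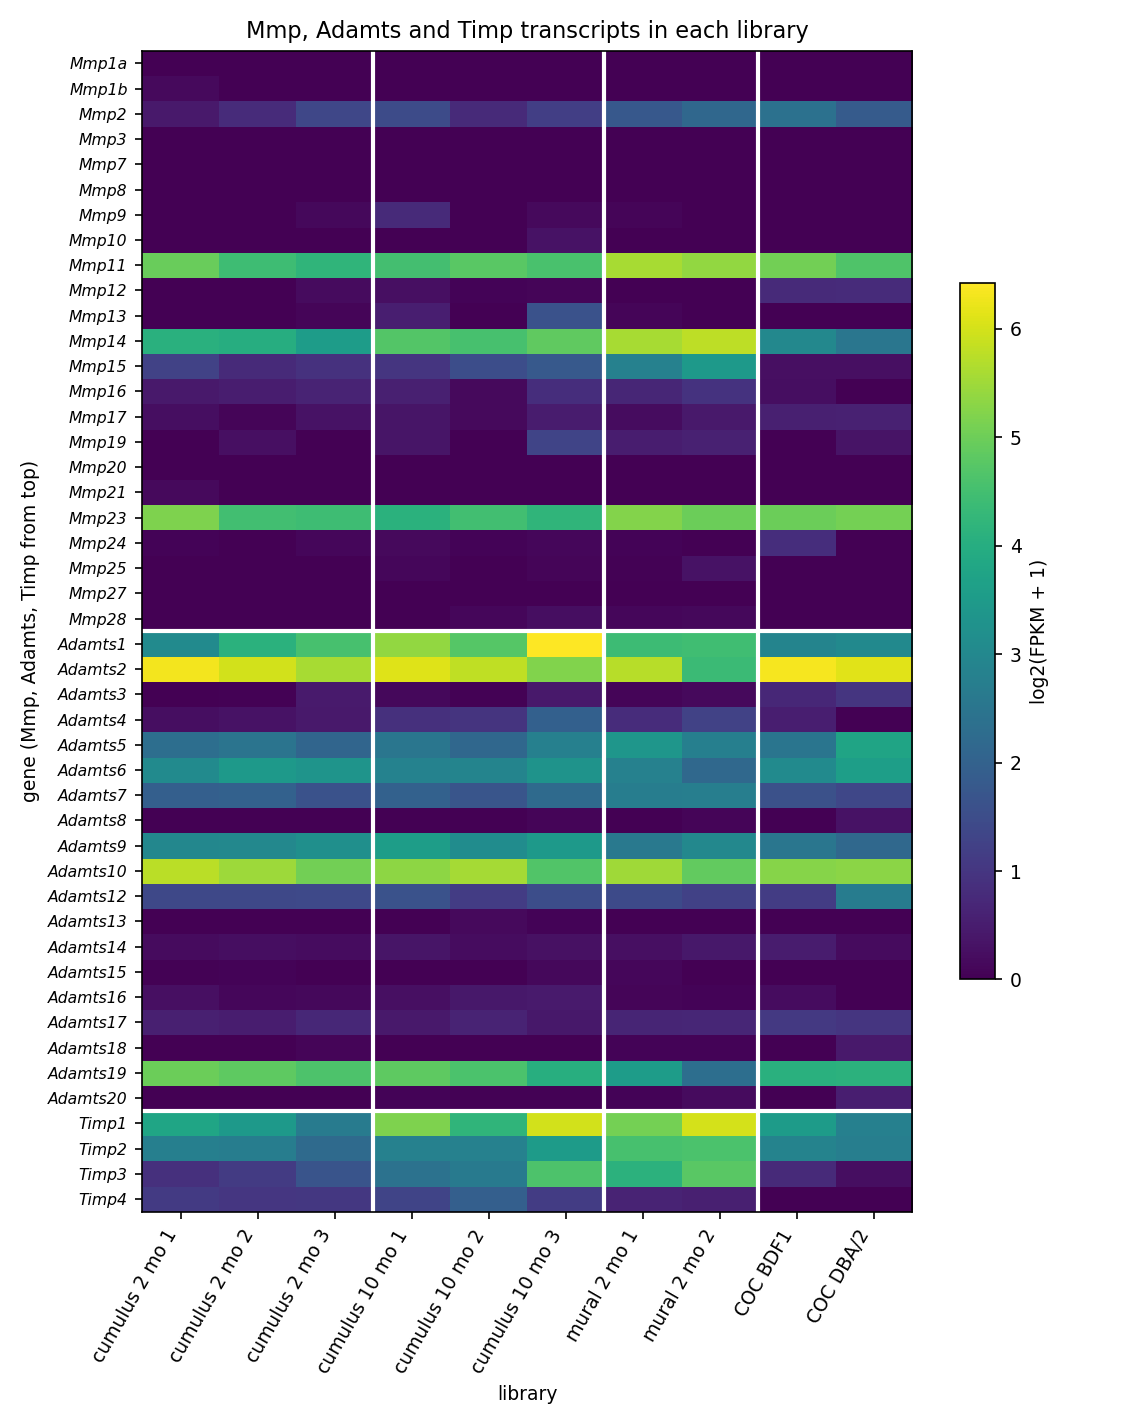
Level of each of the 46 members (rows) in each library (columns) as log2(FPKM + 1), with white lines between the families and between the groups. Most Mmp rows are dark, at or near 0, whereas Mmp11, Mmp14, Mmp23, Adamts2, Adamts10 and Adamts19 are bright in nearly every column and Timp1 and Timp3 differ between groups.

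The order of levels differed between the groups. In cumulus cells at 2 months the highest members were Adamts2, which removes the N-propeptide of procollagens, at a mean of 62.6 FPKM, and Adamts10, which binds fibrillin microfibrils, at 43.0. Adamts19 followed at 27.2 FPKM and Mmp23, a membrane-anchored MMP, at 25.7. The ranges of neighbours overlapped from Adamts2 (47.1 to 79.0 FPKM) to Adamts10 (32.4 to 52.7), and from Adamts19 (23.7 to 30.5) to Mmp23 (20.7 to 35.3), whereas Adamts10 and Adamts19 did not overlap. In mural cells the first 3 were Mmp14 at a mean of 50.9 FPKM, Timp1 at 48.1 and Mmp11 at 44.1. The range of Timp1 (32.8 to 63.3 FPKM) overlapped with those of Mmp14 (47.3 to 54.5) and Mmp11 (40.9 to 47.2). Mmp14 lay just above Mmp11, without overlap. Cumulus cells at 10 months were led by Adamts2 at 53.0, Adamts1 at 50.3 and Timp1 at 38.2 FPKM, and the complexes by Adamts2, Adamts10 and Mmp23 at 74.6, 37.8 and 31.8.

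The inhibitors made up a small part of the summed family in cumulus cells and a larger part in mural cells. Of the summed FPKM of all 46 members, the 4 Timp genes held 5.66% to 7.03% in 2-month cumulus libraries and 19.5% and 32.1% in the mural libraries. At 10 months they held 14.7%, 11.4% and 26.3% in replicates 1, 2 and 3, and in the complexes 6.85% (BDF1) and 4.80% (DBA/2). Summed Mmp levels were 141 FPKM in both mural libraries, above the 52.5 to 83.8 FPKM of all cumulus libraries at either age. Summed Adamts levels were 157 and 99.4 FPKM in mural cells and overlapped with cumulus cells at 2 months, at 151 to 193 FPKM.

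**Figure D2:**
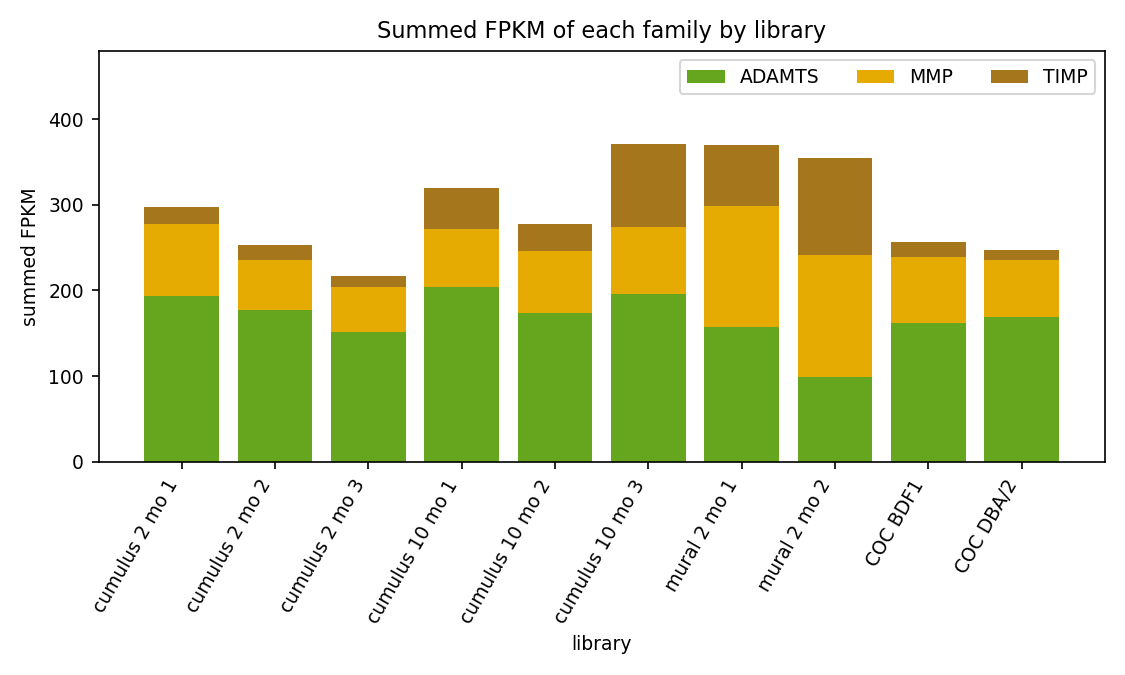
Summed FPKM of the 19 Adamts, 23 Mmp and 4 Timp genes (stacked, from the bottom up) in each of the 10 libraries. The Mmp segment is tallest in the 2 mural libraries, at 141 FPKM each, and the Timp segment is taller in 10-month cumulus and mural libraries than in 2-month cumulus cells and complexes.

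The first comparison set mural granulosa cells against cumulus cells of the same age, 2 months. Transcripts of 3 of the 4 inhibitors (Timp1, Timp2 and Timp3), of the membrane-bound Mmp14 and Mmp15, of the secreted Mmp11 and of Adamts7 were higher in mural cells, and that of Adamts19 was lower. By limma on log2(FPKM + 1) with an adjusted p under 0.05 over all 12412 genes tested, 7 of the 18 tested members were higher in mural cells, where 9.69% of all genes were. Lower was 1 of 18, where 11.2% of all genes were, so that 8 of 18 passed in either direction against 20.9% of all genes. The median log2 fold change was 0.64 over the 18 members and -0.08 over all genes. Groups did not overlap for 9 members as higher and 3 as lower, against 25.6% and 32% of all genes (12 members and 57.6% of genes in either direction). Priming may also differ between these groups, and it cannot be told apart from the cell type.

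Single libraries bore on these calls. Without mural replicate 2, mural cells rest on 1 library that is assumed to vary like the other groups, and 1 of the 7 higher members still passed (Mmp14, adjusted p = 0.04998, limma) and none of the lower. The calls over all genes fell as well, from 2599 to 99 without mural replicate 2, to 800 without mural replicate 1 and to 1164 without cumulus replicate 2. Without mural replicate 1, 3 members passed as higher, and without cumulus replicate 2, 4 did. Without 10-month replicate 3, which enters only the estimate of the spread, 2 passed as lower (Adamts6 was added). After each library was rescaled to the same summed FPKM the all-gene median of the log2 fold changes moved from -0.08 to 0.14, and the share of all called genes that were higher in mural cells moved from 46.3% to 69.5%. The members counted as higher and lower then numbered 8 and 1.

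Among the inhibitors, Timp1, a secreted TIMP that is also a growth factor for some cells, had levels of 12.7, 10.0 and 5.36 FPKM in cumulus replicates 1, 2 and 3 and of 32.8 and 63.3 in mural replicates 1 and 2. Both mural libraries lay above all 3 cumulus libraries, and they differed widely from each other. The log2 fold change was 2.24 ± 0.55 SE (limma adjusted p = 0.0263), and the call was lost without either mural library or without cumulus replicate 2 or 3 (adjusted p up to 0.193). Timp2, which inhibits MMPs and also takes part in the activation of proMMP2 by MMP14, stood at 5.83, 5.63 and 3.63 FPKM in cumulus and at 22.3 and 23.5 in mural cells. The mural libraries were close together and far above the cumulus libraries, with a log2 fold change of 2.01 ± 0.26 SE (limma adjusted p = 0.00561, and 0.0657 without mural replicate 2). Timp3, the TIMP that binds to the matrix, stood at 0.847, 1.16 and 2.20 FPKM in cumulus and at 16.6 and 26.6 in mural cells. It had the largest log2 fold change among the 18 members, at 3.24 ± 0.63 SE (limma adjusted p = 0.0134, 0.0595 without mural replicate 1 and 0.116 without mural replicate 2). Timp4 went the other way in level, at 1.14, 1.03 and 1.05 FPKM in cumulus and 0.553 and 0.468 in mural cells. Its groups did not overlap, but it did not pass (log2 fold change -0.46 ± 0.29 SE, limma adjusted p = 0.295).

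The 250 bases upstream of the annotated transcript start are shown for Timp1, Timp2, Timp3 and Mmp14, picked from the 7 members that were higher in mural cells. The windows of Mmp11, Mmp15 and Adamts7, also higher there, were not scanned, nor was that of any further member. They are RefSeq sequences of build GRCm38.p6, which is not the build of the expression table, at chrX:20869916-20870165 (+ strand), chr11:118355412-118355661 (- strand), chr10:86300162-86300411 (+ strand) and chr14:54431348-54431597 (+ strand). Capitals mark every match, on either strand, to the GC box GGGCGG, the AP-1 element TGANTCA, the NR5A core TCAAGG or the TATA box TATAAA.
Timp1: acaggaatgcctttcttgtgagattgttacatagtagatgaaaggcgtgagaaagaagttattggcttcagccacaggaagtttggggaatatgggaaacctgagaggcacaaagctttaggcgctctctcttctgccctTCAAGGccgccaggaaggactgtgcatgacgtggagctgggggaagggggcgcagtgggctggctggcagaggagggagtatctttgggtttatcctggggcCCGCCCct
Timp2: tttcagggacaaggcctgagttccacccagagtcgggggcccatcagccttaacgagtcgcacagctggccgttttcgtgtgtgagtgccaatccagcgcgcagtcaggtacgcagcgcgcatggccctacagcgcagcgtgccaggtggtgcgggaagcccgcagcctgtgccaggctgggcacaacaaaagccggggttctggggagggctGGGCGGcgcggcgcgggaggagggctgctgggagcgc
Timp3: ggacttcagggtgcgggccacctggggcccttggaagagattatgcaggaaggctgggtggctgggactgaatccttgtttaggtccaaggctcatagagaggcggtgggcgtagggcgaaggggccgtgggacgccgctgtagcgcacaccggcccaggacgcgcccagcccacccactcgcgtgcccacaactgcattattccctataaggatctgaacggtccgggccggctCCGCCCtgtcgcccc
Mmp14: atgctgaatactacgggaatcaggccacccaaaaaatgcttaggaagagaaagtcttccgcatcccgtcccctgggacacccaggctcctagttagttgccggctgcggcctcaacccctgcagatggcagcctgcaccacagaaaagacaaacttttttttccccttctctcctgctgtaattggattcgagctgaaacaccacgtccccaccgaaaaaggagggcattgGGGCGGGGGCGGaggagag

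All 4 windows held a GC box, which 32.7% of 32851 mouse promoter windows of the same length hold. As the 4 were picked, this cannot be read as a feature of the members higher in mural cells. It lay within the last 37 bases before the start in each, and Mmp14 held 2 that adjoin without overlap. Timp1 alone held the NR5A core, found in 12.5% of all windows, at 110 to 105 bases before its start. None of the 4 held an AP-1 element (6.75% of all windows) or a TATA box (12.4%) in these letters. A match describes the sequence and does not show a bound site.

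Among the proteases, Mmp14, which sits in the cell membrane, cuts collagen and activates proMMP2, reached 15.9, 15.1 and 10.8 FPKM in cumulus replicates 1, 2 and 3 and 47.3 and 54.5 in mural cells. Both mural libraries lay far above all cumulus libraries, with a log2 fold change of 1.81 ± 0.19 SE (limma adjusted p = 0.00295). It was the single member that passed under all 8 fits that left out 1 library (adjusted p 0.00307 to 0.04998). Mmp15, its close membrane-bound relative, stood at 1.40, 0.712 and 0.899 FPKM in cumulus and 6.04 and 10.2 in mural cells (log2 fold change 2.16 ± 0.32 SE, limma adjusted p = 0.00652, and 0.0715 without mural replicate 2). The other membrane-anchored members, Mmp16, Mmp17, Mmp24 and Mmp25, stayed below 1 FPKM in every library, and Mmp23 did not pass, at 35.3, 21.2 and 20.7 FPKM in cumulus and 36.5 and 30.4 in mural cells (adjusted p = 0.283).

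Mmp11, or stromelysin-3, which furin activates inside the cell, stood at 30.0, 20.4 and 17.4 FPKM in cumulus and 47.2 and 40.9 in mural cells. All mural values lay above all cumulus values, with a log2 fold change of 0.97 ± 0.23 SE (limma adjusted p = 0.0228), and the call was lost without either mural library or without cumulus replicate 2 or 3 (adjusted p up to 0.139). Mmp2, or gelatinase A, the proenzyme that MMP14 and TIMP2 activate together, stood at 0.348, 0.730 and 1.57 FPKM in cumulus and 2.42 and 3.40 in mural cells. Its groups did not overlap and it did not pass (log2 fold change 1.09 ± 0.35 SE, limma adjusted p = 0.0611). It passed in 4 of 17 alternatives. These were the rescaled values (limma adjusted p = 0.0448), library weights (0.00648), leaving out 2-month cumulus replicate 3 (0.0376) and leaving out replicate 3 of both cumulus groups (0.0351).

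**Figure D3:**
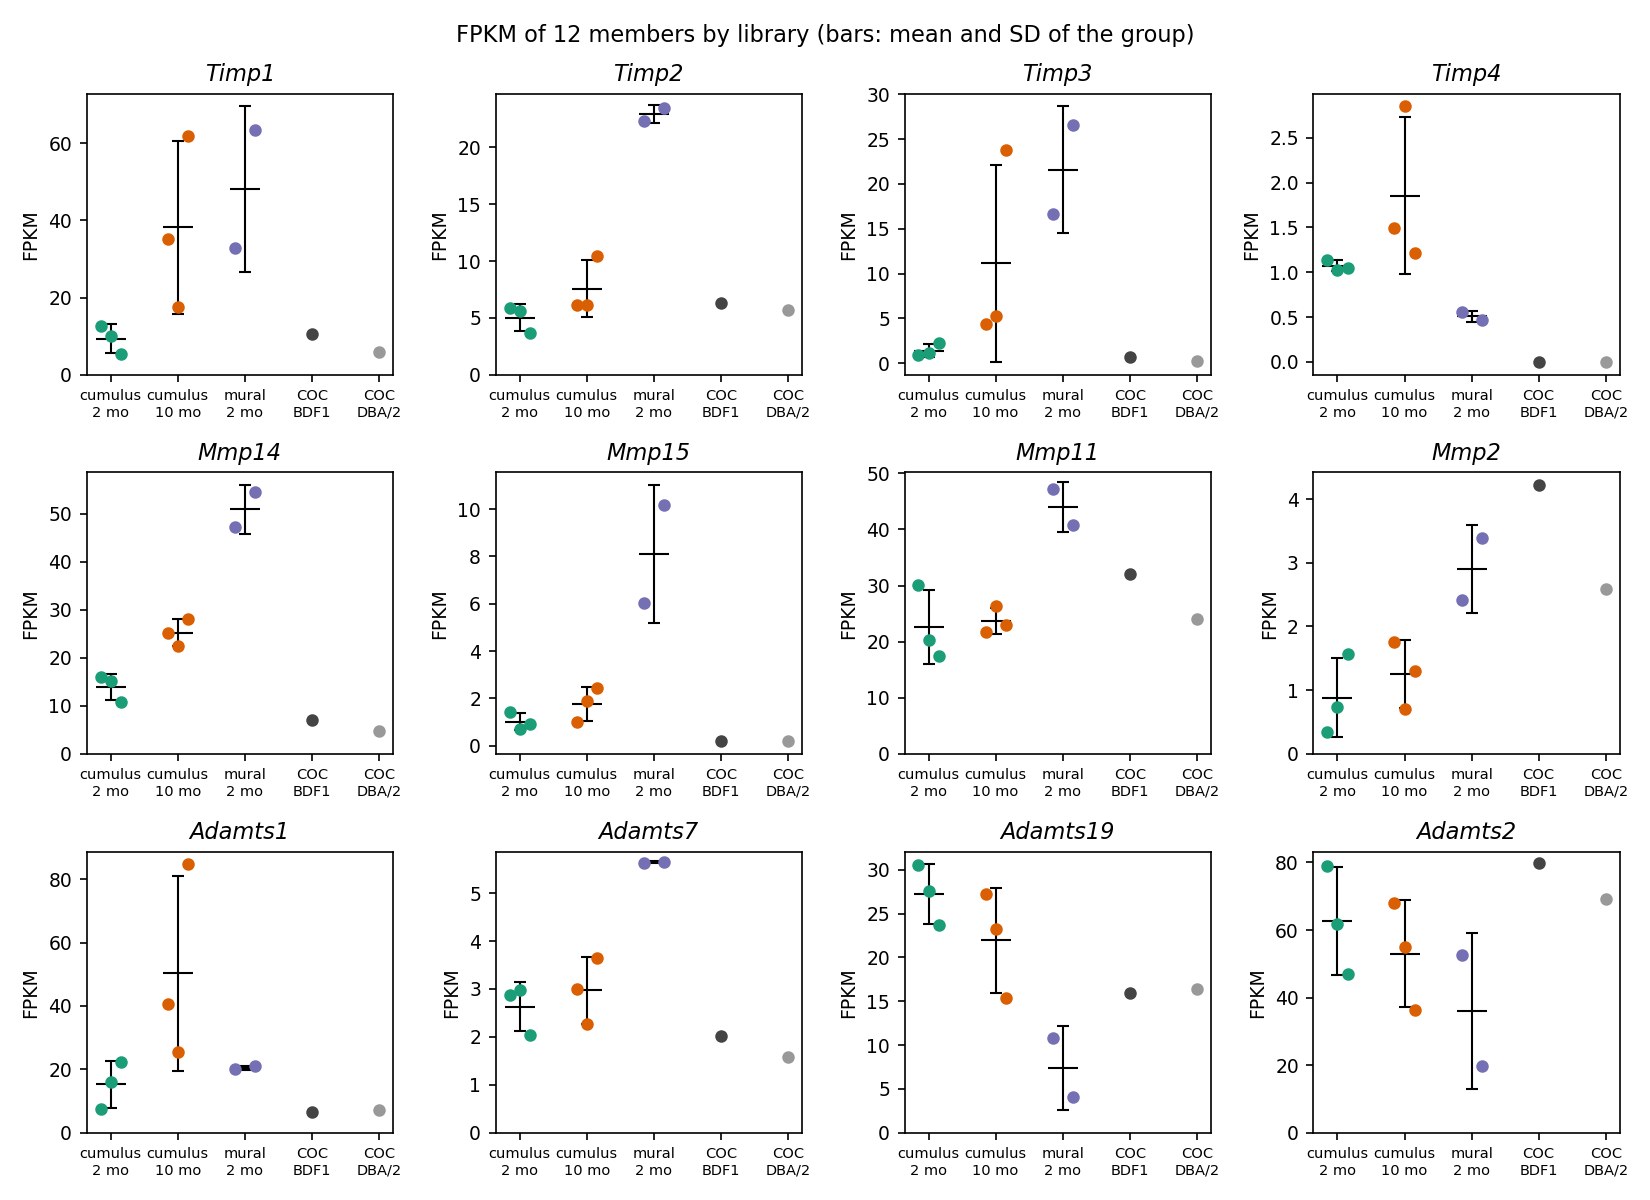
FPKM of 12 members in each library (points), with the mean and SD of groups of 2 or 3 libraries (bars); the complexes have 1 library per strain. For Timp1, Timp2, Timp3, Mmp2, Mmp11, Mmp14, Mmp15 and Adamts7 both mural points lie above all 2-month cumulus points, and for Adamts19 and Timp4 both lie below.

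The ADAMTS proteases did not move together. Adamts19, whose substrates are little known, stood at 30.5, 27.6 and 23.7 FPKM in cumulus and 10.8 and 4.02 in mural cells. It was the single member lower in mural cells (log2 fold change -1.87 ± 0.37 SE, limma adjusted p = 0.0139, and 0.0950 without mural replicate 2). Adamts7, which cuts the matrix protein COMP, stood at 2.88, 2.98 and 2.04 FPKM in cumulus and 5.64 and 5.66 in mural cells (log2 fold change 0.88 ± 0.22 SE, limma adjusted p = 0.0276). This call was lost without any 1 of the 5 libraries compared (adjusted p up to 0.150). The related Adamts12 stood at 1.60, 1.61 and 1.66 FPKM against 1.72 and 1.35 (adjusted p = 0.885).

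Of the proteoglycanases, Adamts1, which cuts versican and is known as a target of the progesterone receptor at ovulation, stood at 7.42, 16.1 and 22.4 FPKM in cumulus and at 20.0 and 21.0 in mural cells. The mural values fell within the cumulus range (adjusted p = 0.530). Adamts5 stood at 3.97, 4.56 and 3.31 FPKM against 9.29 and 5.81 in mural cells, with no overlap and an adjusted p of 0.0736. Adamts9 stood at 6.83, 7.0 and 8.17 against 5.08 and 6.97 FPKM (adjusted p = 0.393). Adamts4 was too low to be tested, at 0.171 to 0.367 FPKM in cumulus and 0.773 and 1.42 in mural cells. The most abundant members overlapped between the groups: Adamts2 ranged from 47.1 to 79.0 FPKM in cumulus and stood at 52.5 and 19.8 in mural cells (adjusted p = 0.173), and Adamts10 gave an adjusted p of 0.627. Adamts6, a relative of Adamts10, lay lower in both mural libraries (6.09 and 3.52 FPKM against 7.39 to 10.1) with an adjusted p of 0.0575.

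Exons of 13 members overlap those of another gene on the opposite strand in the GENCODE M21 annotation, including 3 of the 8 that passed: Mmp11 with Chchd10, Adamts7 with Tbc1d2b and Timp3 with Syn3. No source used here gives the strandedness of the libraries, so reads of such partners may be counted together.

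Many markers of other cell types were higher in the mural libraries, and some were lower. Theca and stroma markers (14 genes) summed to 319 and 447 FPKM in mural cells and 42.8 to 46.5 in 2-month cumulus libraries, endothelial markers (8 genes) to 23.8 and 61.2 against 1.60 to 5.19, and immune markers (11 genes) to 19.8 and 42.9 against 3.78 to 7.39. Aldh1a1 alone gave 195 and 254 FPKM of the theca and stroma sums in mural cells. Ptch1, on that list, was lower there (6.58 and 6.59 against 8.61 to 10.6), and Pdgfra overlapped. By limma 8 of 11 tested theca and stroma, 4 of 5 endothelial and 2 of 7 immune markers passed as higher and 0 as lower. Erythroid markers (7 genes) summed to 141 and 82.5 FPKM in mural cells against 13.3 to 21.4. Alas2, on the same list, went the other way, at 2.36 and 1.17 FPKM against 16.1, 16.0 and 13.3 in cumulus replicates 1, 2 and 3. By limma 1 of the 5 tested erythroid markers passed as higher and 1 as lower, where 9.69% and 11.2% of all genes did. Surface epithelium markers (10 genes) summed to 61.3 and 40.7 FPKM against 38.0 to 42.4, so that the sums overlapped. Without overlap 7 of the 10 were higher and 2 lower (Krt8 and Wt1), where 25.6% and 32% of all genes were. The limma test passed 1 of the 10 as higher and 0 as lower. Of these lists only the erythroid Slc4a1 was at 0 in both mural libraries, and the endothelial Emcn was at 0 in all 3 cumulus libraries. Their part in the higher Timp and Mmp levels was not tested.

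Partners of the proteases were counted from lists of other genes. Of 22 tested matrix substrates 17 were higher in mural cells and 0 lower (9.69% and 11.2% of all genes), with a median log2 fold change of 1.56. Dcn, the collagen-binding proteoglycan decorin, stood at 8.001 ± 5.21 FPKM against 0.0768 ± 0.0682 (SD, n = 2 and n = 3, limma adjusted p = 0.00577), Col1a2, a chain of type I collagen, at 13.3 ± 9.24 against 0.135 ± 0.140 (0.00584), and Sparc, a collagen-binding matricellular protein, at 310.2 ± 179.9 against 40.2 ± 5.54 (0.00616). Comp, the substrate of Adamts7, passed as well (125 ± 13.1 against 0.662 ± 0.0892, adjusted p = 0.00199). Dcn and Col1a2 are also on the theca and stroma list. Vcan, the substrate of Adamts1, was named after its values were seen: it stood at 39.6, 56.5 and 51.5 FPKM in cumulus and 116 and 123 in mural cells (adjusted p = 0.0106). Without mural replicate 2, 1 substrate passed, without mural replicate 1, 9 did, and without cumulus replicate 1, 11 did.

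Activators and brakes of the system were mixed, with 5 higher and 2 lower in mural cells of 14 tested, where 9.69% and 11.2% of all genes were. The higher ones included Reck, a membrane protein that inhibits several MMPs (8.32 ± 0.895 FPKM against 2.62 ± 0.640, limma adjusted p = 0.00986), Pcolce, an enhancer of procollagen processing (114 ± 54.3 against 5.81 ± 1.15, 0.00576), the urokinase Plau (58.3 ± 5.495 against 9.88 ± 1.46, 0.0289) and Spock2 (41.9 ± 1.25 against 8.62 ± 0.798, 0.00195). Lower were Lrp1, a receptor that clears proteases and their complexes, at 56.6 ± 11.2 against 108 ± 13.96 FPKM (0.0298) and Thbs1, thrombospondin 1, at 138 ± 53.0 against 357 ± 21.2 (0.0315). Without mural replicate 2 the count passing was 1, without mural replicate 1 it was 2, and without cumulus replicate 1, 2 or 3 it was 4, 3 and 4.

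Related metalloproteases gave 4 higher and 0 lower of 10 tested, beside the same shares of all genes. Pappa, which cuts IGF-binding proteins, stood at 16.6 ± 3.15 FPKM in mural against 0.0886 ± 0.0599 in cumulus cells (limma adjusted p = 0.00592), and Bmp1, the procollagen C-proteinase, at 38.1 ± 0.180 against 17.6 ± 3.87 (0.00974). Adam15, a membrane-anchored metalloprotease, at 14.4 ± 1.78 against 4.99 ± 1.57 (0.00757) and Adamtsl4, an ADAMTS-like protein without a protease domain, at 3.39 ± 1.94 against 0.0369 ± 0.0320 (0.00957) passed too. None of the 4 passed without mural replicate 2. Among 14 regulators of the ovulatory response, 2 were higher (Lhcgr, the receptor of luteinizing hormone, and the transcription factor Runx2) and 3 lower, where 9.69% and 11.2% of all genes were. The lower ones were the transcription factors Ets2 (10.1 ± 0.524 against 18.9 ± 2.99 FPKM, adjusted p = 0.0125) and Jun (55.4 ± 31.3 against 242 ± 45.7, 0.0331) and the EGF receptor Egfr (8.89 ± 0.627 against 16.5 ± 1.13, 0.0385). Without mural replicate 2 this count was 0, without mural replicate 1 it was 1, without cumulus replicate 1, 2 or 3 it was 2, 2 and 3, and without 10-month replicate 3 it was 8.

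The second comparison set cumulus cells of 10-month against 2-month mice. By limma 0 of 18 members passed, as did 0 of 12412 genes (0% of all genes, smallest adjusted p = 0.0869). The levels of all 4 inhibitors, of Mmp14 and of Adamts1 were nonetheless higher in every 10-month library than in every 2-month library. An unadjusted p under 0.05 was reached by 4 of 18 members (Mmp14, Timp1, Timp3 and Adamts1), against 13.9% of all genes. Groups did not overlap for 6 members as higher and 0 as lower, against 8.93% and 8.88% of all genes (17.8% in either direction). The median log2 fold change was 0.24 over the 18 members and -0.02 over all genes. Without 10-month replicate 3 the 6 members were the same and 1 lower member was added (Adamts6), against 13.6% and 12.5% of all genes. Without replicate 3 of both ages, a choice made after seeing the data, 7 were higher and 3 lower, against 19.3% and 23.3%. Without 10-month replicate 2 the limma test called 245 genes and still 0 members.

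Timp1 stood at 35.2, 17.5 and 61.9 FPKM in 10-month replicates 1, 2 and 3, above the 5.36 to 12.7 of the 2-month libraries given earlier. Its log2 fold change was 1.82 ± 0.49 SE (limma adjusted p = 0.230), and 1.39 without 10-month replicate 3. Timp3 stood at 4.33, 5.24 and 23.8 FPKM, above the 0.847 to 2.20 at 2 months, with most of the mean difference in replicate 3. Its log2 fold change was 2.00 ± 0.56 SE (adjusted p = 0.240), and 1.30 without that replicate. Timp2, at 6.10, 6.12 and 10.5 FPKM, lay just above the highest 2-month value of 5.83 in replicates 1 and 2 (log2 fold change 0.49 ± 0.24 SE, adjusted p = 0.409). Timp4 stood at 1.5, 2.85 and 1.22 FPKM, close to the 1.03 to 1.14 of the 2-month libraries in replicate 3 (adjusted p = 0.515).

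Mmp14 had the smallest p of the members, at 25.1, 22.4 and 28.0 FPKM against 10.8 to 15.9 at 2 months. The 10-month libraries were close together, and replicate 3 did not stand apart (log2 fold change 0.82 ± 0.17 SE, limma adjusted p = 0.197, and 0.75 without replicate 3). Over 18 alternative settings its log2 fold change ran from 0.58 to 0.92 and its adjusted p from 0.0630 to 0.504. Mmp11 and Mmp15 overlapped between the ages: Mmp11 stood at 21.7, 26.3 and 22.9 FPKM (adjusted p = 0.887) and Mmp15 at 1.00, 1.87 and 2.44 (0.536). Mmp2, at 1.76, 0.705 and 1.30 FPKM, overlapped too (0.737).

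Adamts1 stood at 40.6, 25.6 and 84.8 FPKM at 10 months against 7.42, 16.1 and 22.4 at 2 months. No value overlapped, and the spread within each age was wide (log2 fold change 1.61 ± 0.48 SE, limma adjusted p = 0.252, and 1.15 without replicate 3). Adamts4 stood at 0.849, 0.943 and 2.92 FPKM against 0.171 to 0.367, again without overlap and below the level required for testing. Adamts5 (4.79, 3.43 and 5.97 FPKM, adjusted p = 0.766), Adamts9 (10.9, 7.70 and 10.1, 0.444) and Adamts19 (27.2, 23.2 and 15.4, 0.707) overlapped with the 2-month libraries.

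**Figure D4:**
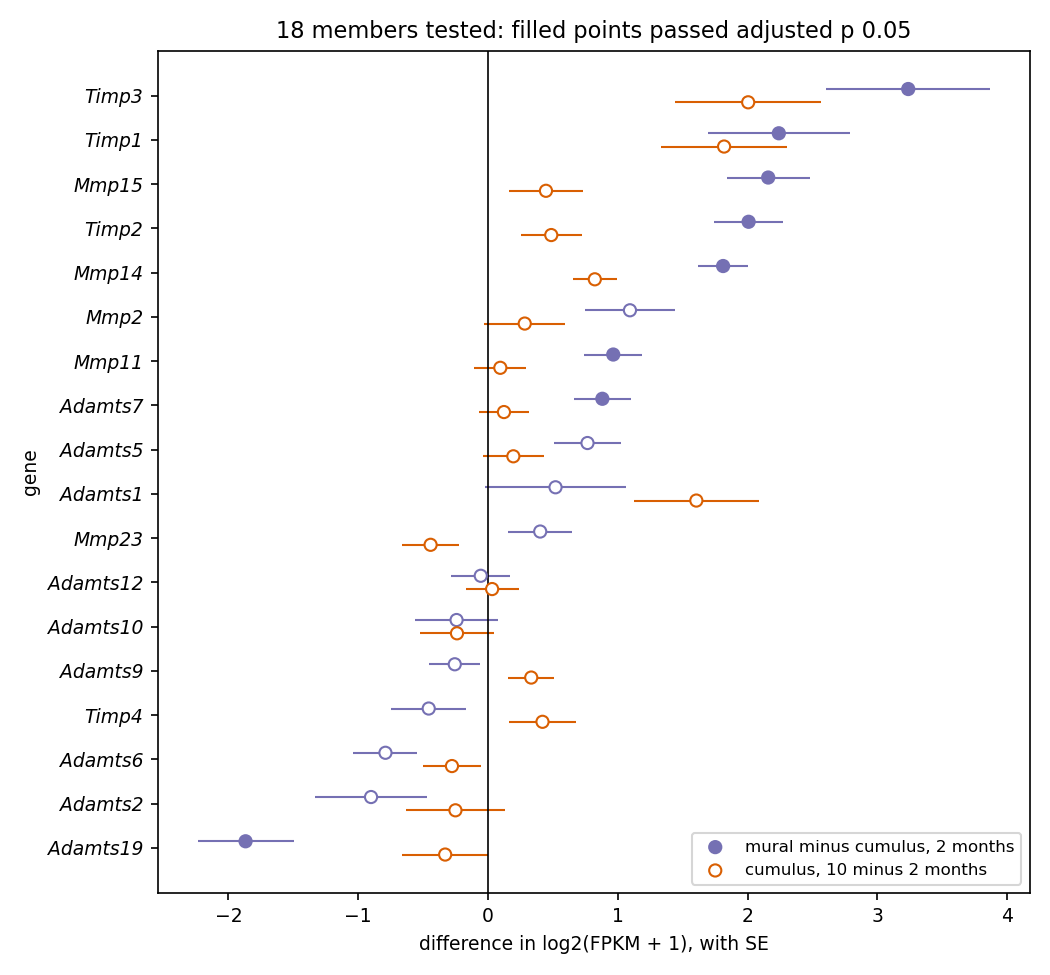
Difference in log2(FPKM + 1) with its SE for the 18 tested members, for mural minus cumulus cells at 2 months and for cumulus cells at 10 minus 2 months; filled points passed an adjusted p of 0.05. Both contrasts share the 2-month cumulus libraries, so they are not independent of each other; 8 mural points and none of the age points are filled.

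Both comparisons used the same 2-month cumulus libraries, so their values stand side by side without a test of likeness. The log2 fold changes in mural cells and at 10 months were 3.24 and 2.00 for Timp3, 2.24 and 1.82 for Timp1, 1.81 and 0.82 for Mmp14, and 2.01 and 0.49 for Timp2. For Adamts1 they were 0.52 and 1.61, and for Mmp23 0.40 and -0.44. Timp4 fell on opposite sides, at -0.46 and 0.42.

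Replicate 3 at 10 months, the highest of the 10 libraries in Adamts1, Adamts4, Mmp13 and Mmp19, also stood apart in other genes. Its mural markers are given above. Its surface epithelium markers (10 genes) summed to 148 FPKM against 73.3 and 71.6 in replicates 1 and 2. Its erythroid markers (7 genes, Slc4a1 at 0) summed to 136 against 23.2 and 21.9. Of its mural sum of 1815 FPKM, Cyp11a1 gave 773 and Hsd3b1 757. At 10 months the mural Nppc (16.1 FPKM) and the erythroid Alas2 (7.58) were lowest in replicate 3. The mural Cyp19a1, the surface epithelium Krt8 and the erythroid Hba-a2 were not highest in replicate 3 either. Some ovulatory regulators, picked here after their values were seen, were highest in it: Pgr, the progesterone receptor, stood at 11.4 FPKM against 0.373 and 0.0816, and Areg, an EGF-like ligand, at 88.5 against 5.70 and 0.914. Others of that list were not: Cebpb (67.6 FPKM against 117 and 83.1) and Ets2 (20.6 against 23.8 and 21.4) were lowest in it, and Jun and Egfr lay between the other replicates. At 2 months Pgr stood at no more than 0.0295 FPKM and Areg at no more than 0.160. Immune markers (11 genes) summed to 23.5, 44.0 and 65.4 FPKM at 10 months and theca and stroma markers (14 genes) to 74.2, 124 and 151, above the 2-month ranges in every library. The part of these cells and signals in the Timp, Mmp14 and Adamts1 levels was not tested. Without replicate 3, Timp1, Timp3, Mmp14 and Adamts1 kept their direction.

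In the lists of partner genes 0 passed with age. Their counts without overlap stand beside 8.93% of all genes as higher, 8.88% as lower and 17.8% in either direction. Of 22 matrix substrates 11 were higher and 1 lower without overlap, led by Dcn at 3.38 ± 1.39 FPKM at 10 months against 0.0768 ± 0.0682 (SD, n = 3 each, limma adjusted p = 0.154), Col1a2 at 3.75 ± 1.95 against 0.135 ± 0.140 (0.197), Col3a1, the chain of type III collagen, at 3.52 ± 2.32 against 0.0917 ± 0.0543 (0.219) and the proteoglycan Bgn at 5.32 ± 4.08 against 0.464 ± 0.0285 (0.220). Dcn, Col1a2 and Col3a1 are theca and stroma markers too. Of 14 ovulatory regulators 9 were higher and 0 lower without overlap. They included Cebpb (89.2 ± 25.3 against 47.6 ± 7.85, adjusted p = 0.213), Runx1 (19.1 ± 12.3 against 7.22 ± 0.260, 0.276) and Ptgs2, the inducible prostaglandin synthase, at 27.6, 2.17 and 27.6 FPKM against 0.150 to 1.09 (0.213). Of 14 activators and brakes 4 were higher and 0 lower without overlap. Spock2, at 29.1, 19.5 and 24.8 FPKM against 7.82 to 9.41, had an adjusted p of 0.0869, equal to the smallest over all genes (limma). The others were Pcolce at 7.64, 21.0 and 31.2 FPKM against 4.89 to 7.09 (0.276), Plau at 34.4, 18.7 and 111.9 against 8.71 to 11.5 (0.237) and its receptor Plaur at 5.52, 0.458 and 10.2 against 0 to 0.166 (0.276). Of 10 related metalloproteases 2 were higher and 1 lower without overlap, the last being Adam17, the sheddase of TNF and EGF-like ligands, at 29.8 ± 0.668 against 34.5 ± 2.65 (0.446).

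The complexes were set against cumulus cells at 2 months to describe the members where the oocyte is present. They differ from them in strain, age, known priming and the oocyte, which cannot be told apart, and with 1 library per strain no test was made. A gene was counted when both complexes lay at least 2-fold, on the log2(FPKM + 1) scale, to the same side of the mean of the 3 cumulus libraries. Of 16 members with a mean of at least 1 FPKM over these 5 libraries, 0 were counted as higher and 0 as lower, where 10.9% and 1.84% of 12454 genes were (12.8% in either direction). The count of 0 was not stable: it became 2 higher and 1 lower without the BDF1 complex, 1 and 1 without the DBA/2 complex or without cumulus replicate 3, and 0 and 1 without cumulus replicate 1. The counts over all 12454 genes moved as well, from 1359 higher and 229 lower to 1924 and 675 without the BDF1 complex. They were 1719 and 407 without the DBA/2 complex, 1543 and 229 without cumulus replicate 3, and 1329 and 229 without cumulus replicate 1.

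Several members came near that limit. Mmp14 stood at 7.01 FPKM in the BDF1 and 4.78 in the DBA/2 complex, below every other library, with log2 differences of -0.88 and -1.35 from cumulus cells. Adamts1, at 6.48 and 7.31 FPKM, was also below every other library (-1.002 and -0.85, the lowest 2-month value being 7.42). Mmp2 stood at 4.22 and 2.58 FPKM, above every 2-month cumulus library (1.52 and 0.98). Timp3 stood at 0.713 and 0.182 FPKM, below the lowest cumulus value of 0.847 (-0.45 and -0.98), and Timp4 was listed at 0 in both. Mmp15 stood at 0.196 and 0.200 FPKM, against 0.712 to 1.40 at 2 months. Timp1 (10.5 and 5.96 FPKM) and Timp2 (6.31 and 5.72) lay within or just above the 2-month cumulus range. Adamts9, at 4.79 and 3.49 FPKM, lay below all other libraries.

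A few members differed between the 2 strains' complexes. Adamts5 stood at 12.6 FPKM in the DBA/2 and 4.65 in the BDF1 complex, and Adamts12 at 5.54 and 1.19, with the DBA/2 value above every other library in both genes. Low members seen mainly in complexes included Mmp12, macrophage elastase, at 0.704 (BDF1) and 0.718 FPKM (DBA/2) against at most 0.200 elsewhere, and Adamts3, a procollagen N-propeptidase, at 0.649 and 0.993 against at most 0.389. Immune markers summed to 7.57 and 10.8 FPKM in the complexes, against 3.78 to 7.39 in 2-month cumulus cells, and 6 of 11 (Ptprc, Cd52, Csf1r, Tyrobp, Cd14 and Itgam) were at 0 in both complexes. Their part in the Mmp12 level was not tested. Without replicates these differences have no error. Cumulus markers differed between the complexes as well, at 1114 (BDF1) and 524 FPKM (DBA/2) in sum, and their part in these levels was not tested.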

How the data were processed

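The authors deposited 1 table of FPKM values for all 10 libraries. The submitters' processing notes name TopHat2 2.1.0, Cufflinks 2.1.0 and the mouse build mm9. No source used here gives the annotation, strandedness or depth, and the number of libraries and the unknown depth limit the precision of low values. The table held 23234 symbols after 1 repeated header line was dropped, of which 23019 and all 46 members matched RefSeq symbols or synonyms.

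Tests used log2(FPKM + 1), a scale that compresses differences of weakly expressed genes. The 12412 genes whose mean over 8 C57BL/6 libraries reached 1 FPKM entered 1 limma 3.58.1 fit in R 4.3.3 with a term per group and an intensity trend. P-values are two-sided and Benjamini-Hochberg adjusted over all genes, with a threshold of 0.05. On simulated data with 12412 genes the fit recovered, among 100 genes per size, 82% at a log2 change of 2 and 33% at 1 for mural against cumulus cells, and 89% and 42% for age. Of 12212 unchanged genes it called 9 and 6. The simulation changed far fewer genes than the mural comparison called, and its noise was independent between genes. Its rates may therefore not hold for these data. Named were members that passed, 13 members whatever their values, the 4 of smallest p with age and up to 4 per partner list. The members, lists and tests were chosen with earlier results of these data known. Alternatives changed pseudocount, filter, scaling, groups, weights and libraries; leaving out replicate 3 of both cumulus groups was chosen after seeing the data.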

Additional observations from a re-analysis of the deposited data

How the results depend on the processing

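Over 17 or 18 alternatives per tested member, Mmp14 passed for mural against cumulus cells in all 18, Timp2 and Adamts19 in 17, Mmp15 in 16 of 17, Timp3 in 16, Timp1 in 14, Mmp11 in 13 and Adamts7 in 11 of 17. Leaving out 1 library at a time gave 1 to 7 members higher and 0 to 2 lower. The lower count was 2, not 1, after quantile normalization, in a fit of the compared groups alone and with library weights. Replicate numbers were not taken as pairs in the main fit. Deviations of same-numbered cumulus libraries at both ages correlated at 0.01, 0.12 and 0.15. Replicate 1 at 10 months correlated no better with its own number, whereas replicates 2 and 3 correlated best with theirs. Same-numbered mural libraries correlated at 0.03 and 0.21 with cumulus cells at 2 months, and at 0.05 and -0.05 with those at 10 months. With the replicate block 6 members were higher and 2 lower, and ovulatory regulators counted 3. With age no member passed under any alternative. Signs reversed for members that did not pass: in the mural comparison Adamts10 and Adamts12 after rescaling (0.0105 and 0.10) and without mural replicate 2 (ranges without 1 library -0.55 to 0.0665 and -0.16 to 0.0513), and with age Adamts12 after quantile normalization (-0.13). Without 1 library the age values ran from -0.42 to 0.0188 for Adamts10 (reversed without 10-month replicate 3), from -0.0638 to 0.17 for Adamts12 (without 10-month replicate 1 or 3) and from -0.0669 to 0.31 for Mmp11 (without 2-month replicate 3). Without replicate 3 of both ages, Adamts12 (-0.0042), Adamts5 (-0.0541), Adamts7 (-0.12) and Mmp11 (-0.0467) reversed. The cause was not tested.

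The partner lists moved most with single libraries. In the mural comparison, leaving out 1 library gave 1 to 8 activators and brakes, 1 to 17 matrix substrates, 0 to 5 related metalloproteases and 0 to 8 ovulatory regulators. The last counted 3 with no filter and 8 in the compared groups alone and with library weights. With age, 1 activator or brake passed with library weights. Leaving out 1 library gave 0 to 2 of these and 0 to 1 ovulatory regulators. Over all genes 2599 were called in the mural comparison, 99 to 3253 without 1 library and 5425 with library weights, and with age 0, up to 245 without 1 library and 69 with library weights. Among complexes, pseudocounts of 0.1 and 0.5 each gave 1 member higher (Mmp2), no filter 1 lower (Timp4), quantile normalization 2 lower (Mmp14 and Adamts1) and the mural mean as reference 2 higher and 6 lower. Over all 12454 genes the mural reference gave 1982 higher and 602 lower, and quantile normalization 943 and 394, against 1359 and 229 in the main setting. Leaving out 1 library gave 0 to 2 higher and 0 to 1 lower.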
